A study of Homo sapiens with 14 samples.

Results

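The mRNAs of 7 histone variant genes were examined: H2AZ1, H2AZ2, H3-3A, H3-3B, H2AX, H1-10 and MACROH2A1. They were chosen by gene name, as variant genes with polyadenylated mRNAs that the deposited profiles list, and other listed variants are described at the end. They are 7 of 6714 genes with a listed transcript, and for each the transcript with the highest mean RPKM (read abundance scaled to transcript length and library size) was taken. All 7 were listed in both icLASER profiles and 6 in both icSHAPE profiles, where MACROH2A1 was not listed. Scores were set beside those of 2202 genes, which had a coding transcript of the same length in the profiles and in the annotation or were members. The rows of H2AZ1, H3-3A, H2AX and H1-10 differ in length from the annotation and were placed as described under the processing.

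Most histone protein is made in S phase from replication-dependent genes, whose mRNAs have no introns and end in a conserved stem-loop bound by the stem-loop binding protein SLBP instead of a poly(A) tail. Variant histones are made throughout the cell cycle from mRNAs that carry a poly(A) tail, and most of their genes have introns. H2A.Z, from H2AZ1 and H2AZ2, flanks transcription start sites. H3.3, from H3-3A and H3-3B, is placed into chromatin outside replication by HIRA and by DAXX with ATRX. H2AX is phosphorylated around DNA breaks, H1-10 is a linker histone, and MACROH2A1 codes for an H2A with an added macro domain. H2AX is a hybrid case, since its mRNA is known to end either after a histone stem-loop or, further downstream, in a poly(A) tail.

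K562, an established human erythroleukemia line, was probed with 2 reagents. icSHAPE used NAI-N3 at 100 mM for 5 min, which acylates the ribose of flexible nucleotides, and comprised 3 in vivo libraries (cells treated), 2 in vitro libraries (extracted RNA refolded outside cells, then treated) and 3 DMSO control libraries. icLASER used NAz-N3 from a 1 M stock, which after 10 min of UV light labels solvent-exposed purines, and comprised 2 in vivo, 2 in vitro and 2 no-UV control libraries. All RNA came from 1 cell line and was enriched for the poly(A) fraction, and the 14 libraries were pooled by the submitters into 4 profiles, so each condition has 1 value, with no replicate check and no p-value. The in vivo and in vitro profiles of a reagent share their control libraries, and how far a shared control moves both was not tested. Each profile gives an RPKM per transcript and, per nucleotide, a score from 0 (least) to 1 (most reactive). Read counts are not among the values used, and without them no sequencing depth and no counting interval can be given for a score. The profiles held 16295 (icSHAPE in vivo), 12256 (icSHAPE in vitro), 16648 (icLASER in vivo) and 15853 (icLASER in vitro) transcripts, with a mean score over all scored nucleotides of 0.167, 0.141, 0.151 and 0.152. The lowest RPKM listed was between 5.01 and 5.13 in each profile, so a gene that is not listed may still be expressed.

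The labelled cell line was checked against its markers. Of 8 genes that mark K562, 7 were listed in all 4 profiles and the eighth, ALAS2 of erythroid haem synthesis, in 1 profile at an RPKM of 8.97. The fetal and embryonic globins led, with a mean RPKM of 1936 for HBG1, 1688 for HBG2 and 381 for HBZ, and the erythroid transcription factor GATA1 stood at 86.6. CD3E of T cells and ALB of hepatocytes were listed in no profile.

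The member mRNAs differed in all 3 regions. The coding sequence was 273 nt in H2AZ2 and at most 642 nt in 6 of the members, while that of MACROH2A1 was 1116 nt, and the 5′ UTR was from 50 nt in H2AZ2 to 375 nt in H1-10. H2AZ1 (chr4:99948088-99950275, minus strand, GRCh38) has 5 exons and H3-3A (chr1:226062716-226072019, plus strand), H3-3B (chr17:75776434-75779779, minus strand) and H2AZ2 (chr7:44834228-44848021, minus strand) have 4 each. H2AX (chr11:119093874-119095465, minus strand) and H1-10 (chr3:129314771-129316286, minus strand) are single-exon genes, and MACROH2A1 (chr5:135334383-135399887, minus strand) has 9 exons. The 3′ UTR was 273 nt in H2AZ2, 374 nt in H2AZ1, 490 nt in H1-10, 520 nt in H3-3A, 593 nt in MACROH2A1, 1109 nt in H2AX and 2161 nt in H3-3B. The median coding sequence of the members was 411 nt, against 708 nt over all compared genes, while the median 3′ UTR was 520 nt against 358.5 nt. Base composition set H2AX and H1-10 apart. Their 3′ UTRs were 66.2% and 63.7% G and C, where the other 5 ranged from 30.8% to 38.8%. The H2AZ2 transcript with the highest RPKM codes for 90 codons, while the H2AZ1 transcript has 128, so H2AZ2 values describe a shortened reading frame.

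Several members share long stretches with other genes, and a read from such a stretch cannot be assigned to 1 gene by its sequence. Every nucleotide of the H3-3A coding sequence, 42.7% of its 5′ UTR and 78.5% of its 3′ UTR lay in 30 nt stretches found in transcripts of other genes. Among these genes was the listed pseudogene H3P6 with 382 shared stretches. The first 38 nt of the H3-3A row lie outside the annotated transcript and were not searched. The H3-3B coding sequence was shared over 76.2%, its 5′ UTR over 55.6% and its 3′ UTR over 14.9%, through H3-5, an H3.3-like gene that arose by retrotransposition. H2AZ1 was shared over 84.8% of its coding sequence and none of the UTR sequence that the annotation covers. The first 113 nt of its row lie outside the annotated transcript and were not searched. H2AZ2 was shared over 59.0% of its coding sequence and 69.6% of its 3′ UTR, and H2AX over 43.8% of its coding sequence only. H1-10 and MACROH2A1 shared no such stretch. How much the shared reads contribute to the scores was not tested.

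The sequences below are those the results turn on, each read from GRCh38 through the GENCODE transcript and written 5′ to 3′ on the RNA strand with T for U. The first is the histone-type stem-loop of H2AX, with the loop in capitals. The other 4 are 30 nt windows with the most extreme in vivo minus in vitro difference of their mRNA, the first pair for icSHAPE and the second pair for icLASER, with capitals at nucleotides whose score differed by 0.5 or more between the conditions.
H2AX stem-loop, chr11:119094898-119094913: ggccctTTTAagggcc
H3-3A 3′ UTR, chr1:226071659-226071688: ttTTCAtttgtgtgtGAATTTTTAATAtaA
H1-10 coding sequence, chr3:129315830-129315859: agGgaAtGGcCaAGAAGGtgaCcaaggCtG
H2AX 3′ UTR end, chr11:119093896-119093925: ttggggAgttttaGatgGACTAATTTTATT
H3-3B 3′ UTR end, chr17:75776477-75776506: aGcAGaaGttGCAgctGATgcaGGTAtcct

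By the single transcript taken for each gene, H3-3A and H2AZ1 had the highest icSHAPE levels, H3-3A and H1-10 the highest icLASER levels, and MACROH2A1 the lowest. The levels here are RPKM, which is per length, and since RPKM chose the transcript they are a description. H3-3A had an RPKM of 169 in the icSHAPE in vivo profile, 243 in icSHAPE in vitro, 284 in icLASER in vivo and 241 in icLASER in vitro. H2AZ1 stood at 164, 150, 98.2 and 93.0 in the same order. H1-10 stood at 45.7, 61.2, 161 and 127, so that its place depended on the reagent: it was below H3-3B in icSHAPE in vivo and above H2AZ1 in both icLASER profiles. H3-3B stayed between 56.7 and 67.9, H2AX between 29.3 and 48.4 and H2AZ2 between 26.5 and 41.2, and neighbours in this order cannot be separated without replicates. MACROH2A1 had 7.66 in icLASER in vivo and 7.64 in vitro, near the lowest RPKM listed. Summed over all listed transcripts of a gene the order changed, with H3-3B above H2AZ1 in icLASER (587 and 405 in vivo, 434 and 380 in vitro). H3-3B then stood beside H3-3A in icSHAPE in vivo (377 and 376). H1-10, with 1 listed transcript, fell below H2AZ2 in icLASER (161 and 222 in vivo, 127 and 163 in vitro). H2AZ1 stood above H3-3A in icSHAPE (659 and 376 in vivo, 594 and 519 in vitro). The median over the members was 54.9, 60.8, 67.9 and 56.7, against 14.9, 18.9, 14.1 and 14.6 over the 5250, 4274, 5835 and 5279 genes with a listed transcript in the same profiles.

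The RPKM of each mRNA differed by less than 1.5-fold between the conditions of a reagent. The median ratio of in vivo to in vitro RPKM over all genes was 1.08 in icSHAPE and 1.08 in icLASER, and the ratios below were not scaled to it. The ratio of in vivo to in vitro RPKM in icSHAPE was 0.694 for H3-3A and 0.747 for H1-10, and lay between 1.06 and 1.17 for the other 4. In icLASER it was 1.46 for H2AZ2 and 1.27 for H1-10, and lay between 0.969 and 1.20 for the other 5. No member passed a 1.5-fold difference, a bar that 2.34 percent of all genes passed upward and 1.17 percent downward in icSHAPE, and 10.4 and 2.17 percent in icLASER.

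In cells, the median icSHAPE score of the members was highest in the 5′ UTR and lowest in the 3′ UTR. The icSHAPE in vivo mean score of the 5′ UTR was 0.278 in H2AZ1, 0.188 in H2AZ2, 0.298 in H3-3A, 0.242 in H3-3B, 0.217 in H2AX and 0.248 in H1-10, a median of 0.245 against 0.204 over all genes. In the coding sequence the means were 0.165, 0.256, 0.226, 0.253, 0.177 and 0.172, with a median of 0.201 against 0.192. In the 3′ UTR they were 0.147, 0.175, 0.144, 0.180, 0.158 and 0.131, with a median of 0.153 against 0.141. The 3′ UTR thus lay below the coding sequence in each of the 6 mRNAs, and 8.34% of all genes went the other way. H2AZ2 and H3-3B were the 2 members whose 5′ UTR did not lie above the coding sequence, as it did in 56.9% of all genes.

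Outside cells H3-3A turned this order around. Its icSHAPE in vitro mean was 0.114 in the coding sequence and 0.185 in the 3′ UTR, a step of 0.0704 that placed it at the 97.6th percentile of 1241 genes. The other 5 mRNAs kept lower in vitro scores in the 3′ UTR than in the coding sequence, most of all H1-10 with 0.0582 and 0.188.

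icLASER scores were distributed differently over the mRNAs. The 5′ UTR of H2AZ2 had the highest regional mean of any member, 0.510 in vivo and 0.484 in vitro over 44 scored nucleotides. The 5′ UTR of MACROH2A1 had 32 scored nucleotides in vivo and 31 in vitro, so its mean of 0.250 and 0.241 rests on few positions. Over the 31 scored in both it was 0.225 in vivo, a difference of -0.0154. The excess of the H2AZ2 5′ UTR over the coding sequence, 0.381 in vivo and 0.330 in vitro, lay at the 98.8th and 96.8th percentiles of all genes. H2AX and H1-10 were the members with a lower icLASER mean in the 5′ UTR than in the coding sequence, in vivo and in vitro alike. In H1-10 these means were 0.155 and 0.236 in vivo. Over all genes the 5′ UTR lay above the coding sequence in 53.9% in vivo and 72.3% in vitro. H3-3A had the highest icLASER mean of any member in the 3′ UTR, 0.266 in vivo and 0.209 in vitro, with 0.142 and 0.115 in its coding sequence. The 3′ UTR exceeded the coding sequence in 4 of 7 members in vivo, where 49.97% of all genes did so, and in 3 of 7 in vitro (H2AZ1, H3-3A and H3-3B), where 10.1% did so.

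The share of reactive nucleotides, those with a score of 0.5 or more, was close to that of other mRNAs. Its median over the members was 11.9% in icSHAPE in vivo, 11.4% in icSHAPE in vitro, 12.3% in icLASER in vivo and 11.1% in icLASER in vitro. Over all genes it was 12.4%, 11.6%, 11.6% and 11.3%. The share of scores of exactly 0 was lower in the members, with medians of 26.7%, 43.1%, 19.6% and 28.75% in the same order. Over all genes it was 41.8%, 61.0%, 47.7% and 45.8%. How far this moves the comparison of means and percentiles with all genes was not tested.

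The comparison of in vivo with in vitro scores addressed how the RNAs differed between the cell and the refolded state. A regional mean that differed by 0.05 or more was counted as a difference. Over whole transcripts no member reached it with either reagent, and the members' medians, 0.0281 in icSHAPE and 0.00944 in icLASER, lay beside 0.0278 and 0.00722 over all genes. In icSHAPE 9.75 percent of genes were higher in vivo by this rule and 0 percent lower. In icLASER 1.53 percent were higher and 1.02 percent lower. Differences appeared once the mRNAs were divided into regions, and they did not run the same way in all members.

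The icSHAPE 5′ UTR divided the members. It was higher in vivo in H3-3A (0.298 in vivo and 0.222 in vitro) and H1-10 (0.248 and 0.179). It was lower in vivo in H2AZ2 (0.188 and 0.266), H3-3B (0.242 and 0.315) and H2AX (0.217 and 0.296). H2AZ1 had 0.278 and 0.279. These counts of 2 higher and 3 lower of 6 stood against 31.6 percent of genes higher and 13 percent lower, and the median difference of the members was -0.0372, against 0.0250 over all genes. With scores scaled to the profile means, H3-3A (0.0329) and H1-10 (0.0337) no longer passed 0.05, while H2AZ2 (-0.116), H3-3B (-0.119) and H2AX (-0.122) did, and the median was -0.0814. As medians of position differences none of the 5 passed it, and over A and G only H2AX (-0.0105) did not. The A and G setting also drops the first 38 nt of the H3-3A row and the first 113 nt of the H2AZ1 row, which lie beyond the annotation. With the longest transcript of each gene H2AZ2 turned from -0.0784 to 0.0709, H3-3A went from 0.0758 to 0.351 and the members' median turned to 0.0340. H3-3A and H1-10 were also the mRNAs with the lowest RPKM ratio, and whether the 2 measures are linked was not tested.

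The icSHAPE difference in coding sequences was led by H3-3A. Its mean was 0.226 in vivo and 0.114 in vitro, a difference of 0.112 at the 98.6th percentile of 1282 genes. It was the single member past 0.05, where 21.4 percent of genes were higher and 2.03 percent lower. Without shared stretches H3-3A has no coding position left and so no value, H2AZ2 (0.0517) and H3-3B (0.0547) passed 0.05, and H2AZ1 turned from 0.0252 to -0.0354. With the longest transcript of a gene H2AZ2 passed it as well (0.162 in place of 0.0321) and H3-3A had 0.1996. As a median of position differences H3-3A had 0.056. H2AX went the other way, with 0.177 in vivo and 0.209 in vitro, at the 3.67th percentile (-0.0637 with scores scaled to the profile means), and so did H1-10 with 0.172 and 0.188, at the 7.72nd. The median over the members and that over all genes were both 0.0286. The members' median turned to -0.0169 without shared stretches (5 mRNAs) and to -0.00655 with scores scaled to the profile means.

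In the icSHAPE 3′ UTRs, H1-10 and H3-3A lay at opposite ends. H1-10 had 0.131 in vivo and 0.0582 in vitro, a difference of 0.0724, and was the single member past 0.05, where 24.9 percent of genes were higher and 2.85 percent lower. H3-3A had 0.144 and 0.185, a difference of -0.0409 at the 3.86th percentile of 1191 genes. The other 4 were higher in vivo by 0.0136 to 0.0454. As a median of position differences the H1-10 value was 0.00400, and with scores scaled to the profile means H3-3A passed 0.05 downward (-0.0680) and H2AZ2 (-0.0142) and H2AX (-0.00158) turned. Without shared stretches H3-3B passed 0.05 (0.0511) and H2AZ2 turned to -0.00181. H3-3B passed it over A and G only too (0.0621), and H3-3A passed it downward with the longest transcript (-0.0713). The H3-3A difference was smaller without shared stretches (-0.0224) and was 0 as a median of position differences.

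In icLASER, with the transcripts taken here, H3-3B had an in vivo minus in vitro difference of 0.0626 in the 5′ UTR and of 0.0728 in the coding sequence. Its 5′ UTR mean was 0.326 in vivo and 0.263 in vitro, at the 93.5th percentile, and its coding sequence mean was 0.225 and 0.152, at the 96.9th. In both regions it was the single member of 7 past 0.05, where 8.16 percent of genes were higher and 48.2 percent lower in the 5′ UTR, and 7.52 percent higher and 9.81 percent lower in the coding sequence. The 5′ UTR difference of 0.0626 did not stay past 0.05 over A and G only (0.00526), as a median of position differences (0.0250) or without shared stretches (0.0403), and the coding difference of 0.0728 did not as a median (0.0360). Over A and G only the 5′ UTR differences of H2AZ2 (0.0442) and H3-3A (0.0395), both under 0.05, were above that of H3-3B. This setting also drops nucleotides beyond the annotation, the first 38 nt of the H3-3A row and the first 113 nt of the H2AZ1 row. Values of these 2 members over A and G thus cover a shorter 5′ UTR, and how much of their change comes from that was not tested. With the longest transcript H2AZ2 was above H3-3B in both regions (0.380 and 0.155). In the coding sequence MACROH2A1 passed 0.05 downward over A and G only (-0.0588 in place of -0.0346). The median 5′ UTR difference was -0.000245 for the members and -0.0470 for all genes. In this region no member was lower by 0.05, and the lowest was H3-3A with 0.245 in vivo and 0.269 in vitro. H3-3A did pass 0.05 downward without shared stretches (-0.0728), and H2AZ1 did over A and G only (-0.0650). With the longest transcript H3-3A turned to 0.0894, past 0.05 and above H3-3B.

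The 3′ UTR was the region where icLASER was higher in vivo for 6 of the 7 mRNAs. The 25th percentile of the difference over all genes was 0.0204, so most genes were higher there as well. H1-10 had 0.169 in vivo and 0.1002 in vitro, and H3-3A had 0.266 and 0.209, and these were the 2 past 0.05, where 52.8 percent of genes were higher and 1.16 percent lower. With the longest transcript the H3-3A difference of 0.0562 turned to -0.0387 and that of H2AZ2 from 0.0198 to -0.0346. The members' median was then 0.0123. Without shared stretches the H3-3A difference was 0.0205, and as medians of position differences H3-3A had 0.0380 and H1-10 0.0235, all under 0.05, while H2AZ2 passed it without shared stretches (0.0586 in place of 0.0198). MACROH2A1 followed with 0.204 and 0.155, a difference of 0.0485 that passed 0.05 over A and G only (0.0509) and with scaled scores (0.0502), and H2AX with 0.174 and 0.132. H3-3B, with the longest 3′ UTR, was the exception with 0.186 and 0.192. The median difference was 0.0420 for the members and 0.0537 for all genes.

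When each 3′ UTR was divided into 3 equal parts, the icLASER difference was found mostly next to the poly(A) tail. In the part next to the coding sequence 3 of 7 members were higher in vivo and 0 passed 0.05 in either direction, where 34 percent of genes were higher by that much and 8.29 percent lower. In the middle part 5 of 7 were higher and 1, H1-10, passed it, where 44.1 percent were higher and 7.23 percent lower. In the part next to the tail all 7 were higher and 5 passed it, where 76.7 percent were higher and 2.42 percent lower. There H2AX had 0.245 in vivo and 0.0927 in vitro, MACROH2A1 0.321 and 0.171, H3-3A 0.190 and 0.0545, H1-10 0.175 and 0.0498, and H2AZ2 0.181 and 0.123. H2AZ1 (0.191 and 0.164) and H3-3B (0.157 and 0.153) did not reach 0.05. The median difference in this part was 0.125 for the members and 0.0964 for all genes, so the median of all genes rose toward the tail as well. The share of all genes higher in vivo by any amount is not given for the parts. The counts of 3, 5 and 7 members higher in vivo are therefore descriptions. The last 30 nt of each transcript carry no scores and are not included.

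icSHAPE showed no such rise. Its median difference was 0.0309 next to the coding sequence, 0.0240 in the middle and 0.0390 next to the tail, where all genes had 0.0355, 0.0261 and 0.0170. In each part 2 of 6 members were higher in vivo by 0.05, against 36.6, 30.5 and 22.9 percent of genes in the same order. H3-3A was the single member lower by 0.05, in the first and middle parts, against 4.07 and 5.72 percent of genes, and none was in the last, against 6.4 percent. H3-3A thus changed direction along the UTR. It had 0.204 in vivo and 0.290 in vitro in the first part, 0.0901 and 0.177 in the middle part, and 0.135 and 0.0664 in the last. The first 2 differences lay at the 1.91st and 1.88th percentiles of all genes.

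H3-3A held the largest icSHAPE shift of any member in a single stretch. In the A and T rich window printed above, 180 nt after the stop codon, the mean icSHAPE score was 0.136 in vivo and 0.684 in vitro, and 30 of 30 nucleotides were lower in vivo. The standard deviation of the difference over all windows of this transcript was 0.145. icLASER moved in the same direction there, with 0.535 in vivo and 0.741 in vitro in the overlapping window that had its lowest difference (chr1:226071662-226071691). So in cells the stretch was low for icSHAPE and remained among the more exposed for icLASER. The H3-3A window with the highest icSHAPE difference lay in the coding sequence (chr1:226071431-226071460), with 0.307 in vivo and 0.0797 in vitro. All of these windows are shared with other genes over their full length, and they were picked as extremes, so the values describe these profiles and nothing more.

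The H2AX stem-loop is the feature that ties this mRNA to the replication-dependent histones. It was searched for on the RNA strand as GG, any 3 bases, TTTT, any 1 base, A, any 3 bases and CC. The motif was found in 12 of 2165 3′ UTRs (0.554%), and H2AX was the single member with a match. Between the stop codon and the match lie 49 nt, and the match ends 1044 nt before the 3′ end of the transcript, so the profile row is that of the long, polyadenylated form. Reads from the stem-loop of a shorter form cannot be told apart from it. The 16 nt had an icSHAPE mean of 0.154 in vivo and 0.281 in vitro. The 4 loop nucleotides scored 0.454, 0.392, 0.530 and 0.943 in vivo and 1, 1, 1 and 0.613 in vitro. Both arms of the stem were low on average, with 0.00867 in vivo and 0.129 in vitro in the 5′ arm and 0.0160 and 0.0183 in the 3′ arm. The last T of the 5′ arm, next to the loop, scored 0.001 in vivo and 0.523 in vitro. The mean of the loop thus stood far above those of its arms in both conditions. The 3 T of the loop and the T before them were lower in cells. The difference over the 16 nt, -0.127, lay at the 5.69th percentile of 1563 windows of that length in the transcript, whose standard deviation was 0.0745. Of the 16 nucleotides 4 were higher and 6 lower in vivo, and as a median over the 16 the difference vanished, as given under the processing.

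icLASER gave low values over the same 16 nt. The mean was 0.0620 in vivo and 0.0156 in vitro, and in the loop, which holds 1 purine, 0.102 and 0.00825. The difference of 0.0464 lay at the 69.2nd percentile of windows. H2AC25, another histone H2A gene whose 3′ UTR holds the motif, had an icSHAPE loop mean of 0.389 in vivo and 0.299 in vitro, so its loop was not lower in cells.

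Positions are those of the deposited profiles, and a score may belong to the neighbouring nucleotide. In the members icSHAPE in vivo averaged 0.331 ± 0.0464 (SD over 6 mRNAs) at nucleotides followed by A and 0.288 ± 0.0619 before T, against 0.0890 before C and 0.0851 before G. Sorted by the nucleotide itself the contrast was smaller, from 0.233 at A to 0.136 at C. icLASER in vivo averaged 0.338 ± 0.0258 (SD over 7 mRNAs) at G, 0.169 at A, 0.119 at T and 0.0890 at C. All genes gave 0.294 at G, so the members followed the general base preference of each reagent. For H2AZ1, H3-3A, H2AX and H1-10 this preference also set how their rows were aligned to the annotation, so it is no independent finding there.

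Beyond H3-3A, single stretches of H1-10, H2AX, H3-3B and MACROH2A1 stood out. The H1-10 window printed above, 43 nt into the coding sequence, had an icSHAPE mean of 0.302 in vivo and 0.704 in vitro. It is not shared with another gene, and 23 of its 30 nucleotides were lower in vivo. In icLASER the window with the highest difference lay in the 3′ UTR for all 7 members. The share of all genes for which this holds is not given, so nothing particular to the members is shown. By regional means 52.8 percent of genes were higher in vivo by 0.05 in the 3′ UTR, 8.16 percent in the 5′ UTR and 7.52 percent in the coding sequence. The H2AX window near the transcript end had 0.513 in vivo and 0.0377 in vitro, with 29 nucleotides higher and 0 lower. The H3-3B window near its end had 0.505 and 0.123, and in MACROH2A1 the highest window (chr5:135334413-135334442) had 0.452 and 0.0874. H3-3B also held the lowest icLASER window, at chr17:75777975-75778004 in the middle of its 3′ UTR, with 0.145 in vivo and 0.496 in vitro. H2AZ1 and H2AZ2 were the members with the smallest extremes in icLASER, from -0.0734 to 0.0983 and from -0.0737 to 0.0838.

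Start codons differed widely between members, with H2AX high in all 4 profiles. At the start codon the icSHAPE in vivo mean over the 3 nucleotides was 0.219 ± 0.150 (SD over 6 mRNAs), beside 0.228 in the 30 nt on each side and 0.223 at the start codons of all genes. In icLASER in vivo it was 0.266 ± 0.211 (SD over 7 mRNAs), beside 0.193 for all genes. H2AX had a start codon mean of 0.431 in icSHAPE in vivo, 0.510 in icSHAPE in vitro, 0.465 in icLASER in vivo and 0.494 in icLASER in vitro. MACROH2A1 was higher in icLASER in vivo, with 0.626, and had 0.435 in vitro. The G of the H2AX start codon scored 1 in all 4 profiles, and that of H1-10 scored 0.874 and 1 in icSHAPE and 0.674 and 0.627 in icLASER, in vivo and in vitro. The contexts are printed with the codon in capitals.
H2AX start, chr11:119095386-119095406: tacctcgctagcATGtcgggc
H1-10 start, chr3:129315894-129315914: cctcttgctaccATGtccgtg
H2AX stop, chr11:119094954-119094974: caggagtacTAAgagggcccg
The H2AX stop codon scored 1, 1 and 0.387 in icSHAPE in vivo and 1, 0.929 and 0.332 in vitro. In icLASER it scored 0.443, 0.389 and 0.433 in vivo and 1 at each nucleotide in vitro. It was open to both reagents and less exposed to icLASER in cells. Over the members the stop codon mean was 0.331 ± 0.256 in icSHAPE in vivo (SD over 6 mRNAs, all genes 0.222) and 0.187 ± 0.143 in icLASER in vivo (SD over 7 mRNAs, all genes 0.224), so the spread between members exceeded the distance to other genes.

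Known 3′ UTR motifs were searched on the RNA strand. AATAAA, the common poly(A) signal, was in 65.4% of all 3′ UTRs, and it was found close to the transcript end in H2AZ1, H3-3B and H1-10, within the unscored nucleotides. ATTAAA, a variant of that signal, was in 33.9% of 3′ UTRs, and in H2AX it was found 39 nt before the end, where scores exist. There icLASER had 0.455 in vivo and 0.00650 in vitro, while icSHAPE had 0.0250 and 0.161. The 2 scored ATTAAA matches of H3-3B, far from its end, were lower in vivo in icLASER, with 0.132 in vivo and 0.361 in vitro at one and 0.0732 and 0.675 at the other. The H2AX signal overlaps the last 3 nucleotides of the H2AX window printed above. ATTTA, the core of AU-rich elements that can destabilise mRNAs, was in 47.3% of 3′ UTRs, and H3-3B held 7 of them. At the H3-3B match 609 nt after the stop codon icLASER had 0.0484 in vivo and 0.566 in vitro, and at the match 1262 nt after it 0 and 0.424. icSHAPE was not lower in vivo at these matches, with 0.525 and 0.490 at the first and 0.494 and 0.200 at the second, but it was at the matches at 510 nt (0.0484 and 0.277), 1071 nt (0.0652 and 0.212) and 1111 nt (0.103 and 0.114). icLASER was lower in vivo at 6 of the 7 H3-3B matches, the match at 1111 nt being the other. The share over the matches of all genes was not computed, and the ATTAAA matches of the same 3′ UTR were lower too, so nothing particular to ATTTA is shown. The scored matches of other members went the opposite way in icLASER, with 0.0776 in vivo and 0.0184 in vitro in H2AZ1, 0.154 and 0.0604 in H2AX, and 0.645 and 0.210 in MACROH2A1. TGTANATA, the Pumilio motif, was in 12.9% of 3′ UTRs and in no member.

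The paralogue pairs coded for near-identical proteins in different codons and kept part of their reactivity pattern. H3-3A and H3-3B were identical at 136 of 136 residues, with 41.9% of codons and 78.4% of bases the same. Across 408 aligned nucleotides Pearson's r between them was 0.452 in icSHAPE in vivo, 0.290 in icSHAPE in vitro, 0.483 in icLASER in vivo and 0.447 in icLASER in vitro. At the 88 nucleotides where their bases differ r was -0.00798 and -0.00881 in icLASER, in vivo and in vitro, and 0.535 and 0.272 in icSHAPE. At the 320 shared bases icLASER gave 0.596 and 0.548. H2AZ1 and H2AZ2 were identical at 88 of 90 aligned residues, and r across 270 nucleotides was 0.442, 0.228, 0.491 and 0.391. At the 49 nucleotides where the bases of this pair differ r was 0.0992 and 0.108 in icLASER and 0.511 and 0.151 in icSHAPE, so that icSHAPE in vitro was low there as well. These correlations are across positions that share libraries, base preference and codon structure, so they are a description without a p-value. The split by differing bases uses the listed base, while icSHAPE scores followed the next base more closely. No split by the next base was made, so for icSHAPE base preference is not set aside. Whether icSHAPE and icLASER differ at the nucleotides with differing bases beyond base preference was not tested. The pairs share no stretch of 30 nt with each other.

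Both reagents marked partly the same nucleotides. In vivo between 3.94% and 5.09% of positions of the 6 mRNAs were reactive to both, from 2.26 times (H3-3B) to 4.13 times (H2AZ1) the product of the single shares. The median ratio was 2.84 for the members and 2.84 for all genes. In vitro it ranged from 2.16 (H3-3B) to 4.53 (H3-3A), with a median of 3.40 against 3.08.

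By their mean scores in 3 regions of 4 profiles, the paralogues were not each other's nearest genes. The comparison holds 6 members, without MACROH2A1. The 3 genes nearest to the members' median by Euclidean distance over these 12 values, among 954 genes, were PLIN3 (0.0871), RNASE1 (0.0877) and C1orf43 (0.0925). The median distance of all genes was 0.232. The members lay from 0.119 (H2AZ1) to 0.341 (H2AZ2) from their own median, and only H2AZ2 lay above 0.232. A median is drawn toward the middle of its members' values, so whether they form a group was not tested. H3-3B was the gene at rank 160 from H3-3A and H3-3A at rank 156 from H3-3B, while H2AZ2 was at rank 693 from H2AZ1 and H2AZ1 at rank 130 from H2AZ2.

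Related genes were described from lists picked by name. Of 68 genes in a list of replication-dependent histone genes 23 were listed in at least 1 profile and 13 in all 4, although the RNA was enriched for poly(A). The highest mean RPKM in this list were those of H1-2 (225), H2BC12 (95.8) and H4C3 (43.0). Of 20 genes in a second list, made for other variants, 3 were listed, H2AC25 at 125, H3-5 at 15.3 and the centromeric H3 CENPA at 7.44. H2AC25 bears the name of a replication-dependent gene but was counted here only. The first list and its ranking therefore leave it out. Of 30 histone chaperones and deposition factors 21 were listed, led by SET (111), the FACT subunit SSRP1 (44.1) and the nucleosome assembly protein NAP1L1 (38.3). Among 12 of them with icLASER values, 5 of 10 were lower in vivo by 0.05 in the 5′ UTR, where 48.2 percent of all genes were, 3 of 12 lower in the coding sequence (9.81 percent), and 5 of 11 higher in the 3′ UTR, where 52.8 percent were. Among 11 with icSHAPE values, 4 of 10 were higher and 2 lower in the 5′ UTR (31.6 and 13 percent of all genes), 2 higher and 1 lower in the coding sequence (21.4 and 2.03 percent), and 4 of 10 higher in the 3′ UTR (24.9 percent). Of 10 factors that form histone mRNA 3′ ends 5 were listed, among them LSM10 at 29.3 and SLBP at 11.4.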

How the data were processed

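RNA was mapped by the submitters to the Ensembl release 88 transcriptome of GRCh38 and scored with the icSHAPE pipeline. Trimmomatic and Bowtie2 are named in the submitters' processing notes, without versions. The deposited files hold a transcript length in nt, an RPKM and 1 score per nucleotide, made by the authors from pooled replicates against the DMSO or no-UV control libraries. The deposited RPKM and the deposited scores were used as they are, except that 16 scores outside 0 to 1 were set to not scored. No read counts were used.

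Transcripts were matched by identifier to GENCODE release 44. Row lengths of H2AZ1, H3-3A, H2AX and H1-10 differ from that annotation (979 and 866 nt, 1088 and 1070, 1614 and 1592, 1507 and 1516), so each was placed at the offset where icLASER scores best followed G and icSHAPE scores an A or T at the next base: 113, 38, 2 and -9 nt, with a mean r of 0.404, 0.328, 0.427 and 0.400 against 0.0530, 0.0655, 0.0760 and 0.0979 at the next best. Among length-matched control transcripts 223 of 223 were placed at 0. Levels use all positions scored in a profile and differences those scored in both conditions, with at least 20 per region. A difference was counted from 0.05 and a nucleotide as reactive from 0.5. Percentiles are among all genes with a length-matched coding transcript, with the members included, and are descriptions. Named genes were the 7 members, their paralogue partners, the 3 nearest genes, the extreme 30 nt windows and the leading genes of each list. The members and lists were chosen with earlier results of these data known. One marker of another cell type is not reported here. Scripts were tested on simulated data. Python 3.11.15, numpy 2.4.6, scipy 1.17.1, biopython 1.88 and matplotlib 3.10.9 were used. Alternatives were another transcript, scaling, threshold, base selection, summary or shared-stretch rule. The selection of A and G also left out positions beyond the annotation, where no base is known.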

Additional observations from a re-analysis of the deposited data

How the results depend on the processing

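Of 109 alternative values for the 24 main results 90 stayed within 1.5 times the main count or 1 SD of the main value, and of 342 for 39 results on single members 317 did. By this rule a value that changed sign within 1 SD counts as stayed. Some alternatives could move little: with positions scored in all 4 profiles the icSHAPE regional values of single members were unchanged. These tallies are therefore no measure of stability. The number of members counted as different depended on the threshold. In icSHAPE 7 of 24 differences counted at 0.05, 16 at 0.03 and 1 at 0.1, and in icLASER 4 of 28 counted at 0.05, 10 at 0.03 and 0 at 0.1. The 7 icSHAPE differences were 4 higher and 3 lower, and 2 higher and 5 lower once scores were scaled to the profile means. The icLASER 3′ UTR median of 0.0420 fell to 0.0123 with the longest transcript of each gene and to 0.00300 with the median of position differences in place of the mean. With the longest transcript 2 differences past 0.05 turned direction, the icSHAPE 5′ UTR of H2AZ2 to 0.0709 and the icLASER 3′ UTR of H3-3A to -0.0387. So did 4 icLASER differences under 0.05, in H2AZ2 the coding sequence (from -0.0245 to 0.155) and the 3′ UTR (from 0.0198 to -0.0346), and in H3-3A the 5′ UTR (from -0.0240 to 0.0894) and the coding sequence (from 0.0269 to -0.00703). The icSHAPE 5′ UTR median of -0.0372 was 0.0340 with the longest transcript, 0.00317 over A and G only and 0 as a median. The icSHAPE stem-loop difference of H2AX was 0 as a median of its 16 nucleotides, and -0.141 and -0.127 with scores moved 1 nt up or downstream. Counted from 0.3, the reactive share was 20.5% in icSHAPE in vivo, 17.7% in icSHAPE in vitro, 22.1% in icLASER in vivo and 18.2% in icLASER in vitro, and from 0.8 it was 6.85%, 6.69%, 6.89% and 6.36%. Summed over all transcripts of a gene, the median RPKM was 267, 258, 222.05 and 163. The full-length H2AZ2 transcript, an alternative chosen after seeing the data, gave correlations with H2AZ1 of 0.464, 0.218, 0.526 and 0.465 in the order of the profiles. Without shared stretches H3-3A had no coding positions left, and its coding difference was not recomputed.

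No paired analysis was possible because the profiles pool the replicates, and for the same reason leaving out a replicate was not run. The depth is unknown, and the precision of a score cannot be stated.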

Other observations

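A stretch of coding sequence shared by H2A-type members was noticed after the extreme windows were known. The lowest icSHAPE window of H2AX and the lowest icLASER window of MACROH2A1 cover the same 10 aligned codons, from codon 67 of H2AX and codon 64 of MACROH2A1, with 10 of 10 residues and 25 of 30 bases the same. Capitals mark nucleotides whose score differed by 0.5 or more.
H2AX, chr11:119095167-119095196: gcgGGcaATgcggcccgcgacaAcaaGaag
MACROH2A1, chr5:135370096-135370125: gctgGcaatGcagcGaGAgaCAACaAgaaG
The H2AX window had an icSHAPE mean of 0.289 in vivo and 0.492 in vitro, and an icLASER mean of 0.214 and 0.298. The MACROH2A1 window had an icLASER mean of 0.145 and 0.430. In H2AZ1, which shares 6 of the 10 residues, the aligned stretch was not lower in vivo, with 0.148 and 0.105 in icSHAPE and 0.112 and 0.0765 in icLASER. In the full-length H2AZ2 transcript, with 6 of the 10 residues as well, icSHAPE had 0.328 and 0.278 and icLASER 0.114 and 0.120, a difference of -0.00610. The H2AX stretch also lies within 30 nt stretches shared with other histone genes over its full length, and the MACROH2A1 stretch does not. Whether the match is more than a coincidence of windows picked as extremes was not tested.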
